A study of Mus musculus with 2 samples.

Results

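The nuclei described here carried transcripts of the GABA synthesis or release machinery and no transcript of Sim1. They were selected on the summed unique molecular identifiers (UMIs) of Gad1, Gad2 and Slc32a1, at least 3 per nucleus, and on a Sim1 count of 0, in barcodes with at least 500 genes and exactly 1 positive hashtag. The selection kept 259 of 4904 such single-tag nuclei, or 5.28% (Clopper-Pearson interval 4.67 to 5.94). They are called members below, and the 3248 nuclei with at least 1 Sim1 UMI are called Sim1 nuclei. Levels of the 4 genes that chose the members are given as a description only.

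The tissue was the paraventricular nucleus of the hypothalamus (PVH) of mice aged 4 weeks. Sim1-Cre and Sun1-GFP were present in every animal, so nuclei of cells in which Cre had acted at any time were marked on the nuclear envelope and sorted by fluorescence. The mice were of 3 genotypes: 7 with Sim1-Cre and Sun1-GFP alone, 4 that also had Otp fl/+, and 6 that also had OtpQ153R/+. In the floxed mice, Otp can be deleted only from 1 allele and only where Sim1-Cre acts. All 17 mice went into 1 droplet library, and 3 hashtag rows named Ctrl, KD and Q153R mark the pools. The tag names Ctrl and Q153R correspond to labelled genotypes, whereas KD was left for the Otp fl/+ mice only because no other tag remained. With 1 pool a genotype there were no replicates, and no test between genotypes was made. Intervals, all at 95%, cover counting error alone and treat the UMIs of a nucleus as independent.

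GABAergic neurons make the inhibitory transmitter GABA with the enzymes GAD67 and GAD65, encoded by Gad1 and Gad2, and load it into vesicles with the transporter encoded by Slc32a1. In the ventral forebrain they arise from progenitors that use the Dlx homeobox genes, which lie in facing pairs with noncoding partners such as Dlx6os1 and Dlx1as. The PVH itself is built mainly of glutamatergic neuroendocrine and projection neurons whose identity depends on Sim1, Otp, Arnt2 and Pou3f2, and GABAergic neurons are best known from the zone around it and from neighbouring nuclei.

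Of the GABAergic markers that the selection did not use, Dlx1 and Dlx6os1, the latter was found in more members. The promoters of its 2 RefSeq starts (GRCm38.p6, each from 250 bases before to 50 after the start, both on the minus strand) are shown because both hold TAATTA, a core recognised by homeodomain proteins, in capitals. The Gad1 promoter (plus strand) is shown as a member gene without it. The letters TAATTA read the same on both strands and occur in 5.29% of all 32851 promoters of this length in the table, and at least 2 copies occur in 0.490%. A match is a run of letters and says nothing of binding.
Dlx6os1, chr6:6869484-6869783: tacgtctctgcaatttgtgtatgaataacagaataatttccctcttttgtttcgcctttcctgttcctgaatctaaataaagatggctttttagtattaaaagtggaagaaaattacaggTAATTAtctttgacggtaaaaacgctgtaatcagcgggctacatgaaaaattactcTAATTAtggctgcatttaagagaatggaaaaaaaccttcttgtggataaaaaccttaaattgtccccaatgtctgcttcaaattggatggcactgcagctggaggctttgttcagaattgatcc
Dlx6os1, chr6:6861634-6861933: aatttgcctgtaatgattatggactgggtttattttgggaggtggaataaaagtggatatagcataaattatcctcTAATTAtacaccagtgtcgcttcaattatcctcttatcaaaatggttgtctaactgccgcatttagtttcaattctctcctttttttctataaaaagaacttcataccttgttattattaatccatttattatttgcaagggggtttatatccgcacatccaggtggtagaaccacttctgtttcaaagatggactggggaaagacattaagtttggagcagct
Gad1, chr2:70561879-70562178: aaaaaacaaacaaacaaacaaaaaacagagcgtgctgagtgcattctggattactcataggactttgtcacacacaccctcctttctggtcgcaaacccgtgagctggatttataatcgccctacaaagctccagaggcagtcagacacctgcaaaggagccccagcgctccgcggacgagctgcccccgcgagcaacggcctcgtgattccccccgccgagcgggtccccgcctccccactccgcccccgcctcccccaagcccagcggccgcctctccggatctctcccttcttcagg
The first Dlx6os1 window holds 2 copies and the second 1. In the GENCODE vM21 annotation Dlx6os1 (chr6:6820189-6871592, minus strand) spans all of Dlx6 (chr6:6863334-6868568, plus strand), and Dlx1as (chr2:71516454-71537891, minus strand) spans all of Dlx1 (chr2:71528113-71533981, plus strand). Whether counting used the strand is not given in the sources used here, so reads of these partners cannot be told apart with certainty.

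Members were of ordinary depth for neurons in this library. The median member held 6050 UMIs and 2581 genes, with a range of 1337 to 19261 UMIs, and the median Sim1 nucleus held 5704 UMIs. Most members stood close to the selection limit: the median was 4 GABA gene UMIs, the highest 20, and 83 members (32.0%) had exactly 3. The 83 nuclei just inside that limit held Dlx6os1 at 89.5 CPM, counts of a gene summed over nuclei and scaled to a library of 1000000 UMIs, and the 96 nuclei just outside it, with 2 GABA gene UMIs and no Sim1 UMI, at 56.6 CPM. On the Sim1 side, the 31 nuclei with at least 3 GABA gene UMIs and exactly 1 Sim1 UMI held Dlx6os1 at 11.4 CPM and Otp at 73.8 CPM. The 75 members with 6 or more GABA gene UMIs held Dlx6os1 at 122 CPM and Otp at 5.56 CPM.

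The marker genes left out of the selection stood far higher in members than in Sim1 nuclei. Dlx6os1 stood at 104 CPM (89.2 to 121) in members and 1.79 CPM in Sim1 nuclei, a ratio of 58.2 (40.4 to 85.9). Dlx6os1 levels in Ctrl, KD and Q153R members were 103, 104 and 113 CPM. The counting intervals of the 3 pools overlapped. A Dlx6os1 UMI was found in 35.9% of members, 26 of 3248 Sim1 nuclei and 0 of 77 nuclei of an astrocyte-like cluster, which serves as a background although its median depth was only 1759 UMIs. Thinned to 2000 UMIs per nucleus, with 4 shallower members left out, the expected share was 16.9% of members and 0.223% of Sim1 nuclei.

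Dlx1, a homeobox factor of interneuron development, stood at 25.6 CPM in members (42 UMIs in 37 nuclei) and 0.597 CPM in Sim1 nuclei, 42.9 times as high (22.2 to 89.5). Its level was 34.5 CPM in Ctrl members, 12.8 CPM in KD members and 10.7 CPM in Q153R members, the last from 2 UMIs. Dlx1as stood at 50.6 against 10.9 CPM, a ratio of 4.62 (3.55 to 5.98), and the astrocyte-like cluster held it at 28.6 CPM. Dlx2, Dlx5 and Dlx6 were sparse, with 15, 10 and 17 UMIs in members, at 61.3 times (17.3 to 330), 24.5 times (7.63 to 91.4) and 29.8 times (11.7 to 84.9) the level in Sim1 nuclei. These 3 genes lie under the minimum of 50 UMIs over both sets that the counts of genes below use.

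The genes that chose the members were uneven among them. Gad2 had 842 UMIs in members, Gad1 344 and Slc32a1 155. Members with Gad1 and Gad2 but no Slc32a1 UMI made up 33.2%, members with all 3 genes 26.6%, and members with Gad2 alone 21.6% (56 nuclei). A Gad1 or Slc32a1 UMI was present in 203 members, or 78.4% (72.9 to 83.2). Among the 107 Sim1 nuclei that also held at least 3 GABA gene UMIs, 82 (76.6%) had Gad2 alone and 25 (23.4%, 15.7 to 32.5) had a Gad1 or Slc32a1 UMI. The GABA genes of Sim1 nuclei were thus mostly Gad2.

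Members with Gad2 alone differed from the other members in genes that the selection did not use. Dlx6os1 stood at 33.0 CPM in the 56 members with Gad2 alone and at 122 CPM in the 203 with a Gad1 or Slc32a1 UMI, a ratio of 0.269 (0.132 to 0.495). Otp, the homeobox factor of PVH neuroendocrine lineages, had 13 of its 14 member UMIs in members with Gad2 alone, 38.9 CPM (20.7 to 66.6), and 1 UMI in the rest. Slc17a6, which loads glutamate into vesicles, stood at 53.9 CPM (32.0 to 85.2) and 11.5 CPM (6.42 to 18.9). Crh, the hormone that drives the stress axis, stood at 83.9 CPM and 9.94 CPM, a ratio of 8.44 (4.23 to 17.7). For Otp and Slc17a6 the members with Gad2 alone lay between the other members and Sim1 nuclei, which stood at 89.6 and 144 CPM. For Crh they lay above both, with Sim1 nuclei at 31.5 CPM. These levels are sums over unlike nuclei. In subcluster 5, described next, only 3 of 29 nuclei had a Gad1 or Slc32a1 UMI, so most were members with Gad2 alone. Subcluster 5 and the members with Gad2 alone each held 13 Otp UMIs in 7 nuclei.

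Clustering of the members without the listed genes gave 7 subclusters, and 1 of them went against the GABAergic label. Subcluster 5 held 29 members (11.2%, 7.63 to 15.7), led by 5330439M10Rik, Tmem163, Crh, Tns1, Chst8, Hs3st2, Nrn1, Agtr1a, Plod2 and Fam159a. It held Gad2 at 854 CPM, above the 481 CPM of the other 230 members, but Gad1 at 21 CPM from 1 nucleus and Slc32a1 at 14.0 CPM. No Dlx6os1 UMI was found in it, which allows up to 21 CPM if 0 is read as at most 3 UMIs, while the other members held 114 CPM. The interval of the ratio between them had an upper limit of 0.229. All but 1 of the 14 Otp UMIs of members were in it. Otp at 91.0 CPM (48.5 to 156) was close to the 89.6 CPM of Sim1 nuclei, as was the PVH factor Ebf3, at 91.0 against 101 CPM. Slc17a6, also at 91.0 CPM (48.5 to 156), was below the 144 CPM of Sim1 nuclei, which its interval still held. Each of the 3 levels rested on 13 UMIs.

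The Crh subcluster also carried Arnt2, the partner of Sim1 in PVH development, at 791 CPM against 130 CPM in the other members. Agtr1a, the angiotensin receptor gene of Crh neurons, stood at 203 CPM in it and 7.34 CPM in the other members. Crh stood at 231 CPM (159 to 324) in it, 5.34 CPM in the other members and 60.2 CPM in Sim1 nuclei with at least 3 GABA gene UMIs. Its nuclei were shallow, with a median of 4029 UMIs. Clustered with all 6157 barcodes, none of the 29 fell in the cluster that held most members. In the cluster of all nuclei led by Sv2c, 5330439M10Rik, Hs3st2 and Crh, to which 20 members belonged, 251 of 718 single-tag nuclei (35.0%) had no Sim1 UMI although Sim1 stood at 418 CPM there.

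**Figure D1:**
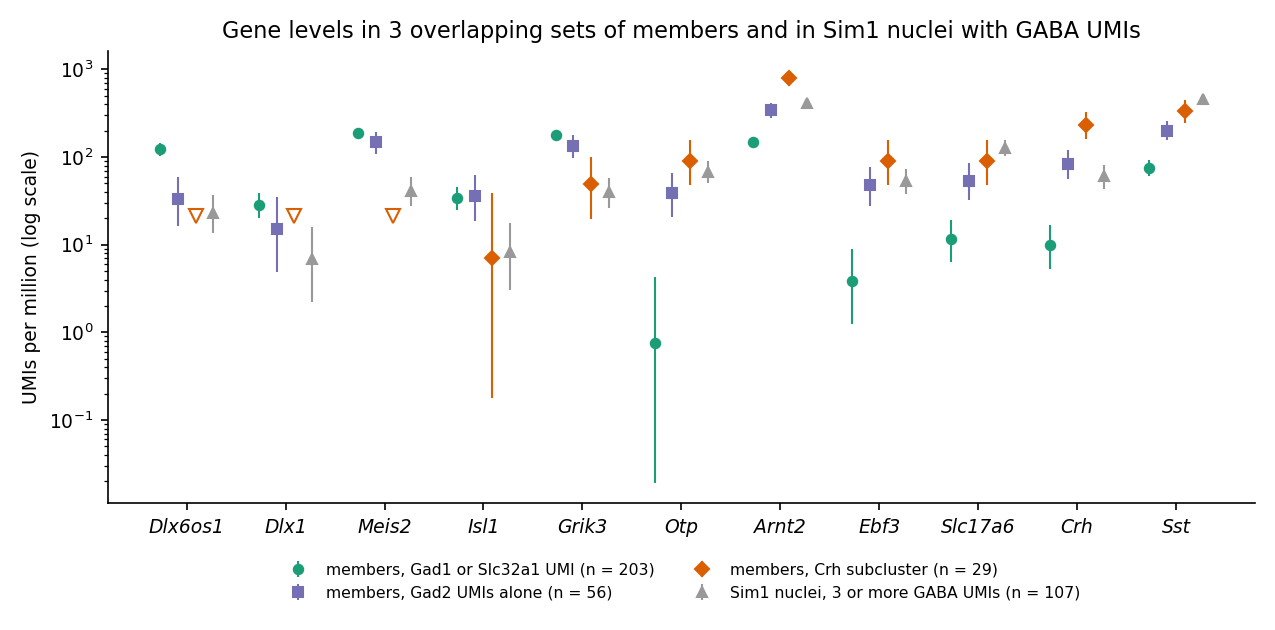
Summed level of 11 genes, in CPM on a log scale, in members with a Gad1 or Slc32a1 UMI, members with Gad2 alone, the Crh subcluster of members (which overlaps both) and Sim1 nuclei with 3 or more GABA gene UMIs. Bars are 95% Poisson intervals, and open triangles mark the level that 0 UMIs allow. Dlx6os1 falls from 122 CPM in the first set to 33.0 CPM in the second, while Otp, Slc17a6 and Crh run the other way.

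Clustering of all barcodes gave a second view of how complete the selection was. One cluster, led by Gad1, Dlx6os1, Meis2, Grik3 and Slc32a1, held 211 of the 259 members (81.5%). It held 591 single-tag nuclei, of which 527 (89.2%) had no Sim1 UMI. Of these, 316 had fewer than 3 GABA gene UMIs, with a median of 5034.5 UMIs against 6200 in the members of the cluster, and held Dlx6os1 at 57.2 CPM against 123 CPM. Members made up 35.7% of the cluster. Of the 48 members outside it, 20 were in the Crh-led cluster named above, 9 in a cluster led by Adamts19 and 6 in a cluster led by Sst.

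The members were next set against Sim1 nuclei, with transcription factors first. Of 13533 genes with at least 50 UMIs over both sets, 252 (1.86%) were at least 2-fold higher in members and 756 (5.59%) at least 2-fold lower, with a median log2 ratio of -0.02. Of 108 measured factors on a list of forebrain GABAergic transcription factors 66 were counted, and 15 of these were at least 2-fold higher and 12 at least 2-fold lower, with a median log2 ratio of -0.05. Of 18 measured PVH transcription factors 15 were counted, with 0 at least 2-fold higher, 7 at least 2-fold lower and a median of -0.87. Without the Crh subcluster 1 was higher and 9 were lower, with a median of -1.65, beside 2.16% and 6.31% of all genes. All 3 Dlx locus genes counted, of 8 measured, were at least 2-fold higher. Dlx6os1 and Dlx1 had only 36 and 12 UMIs in Sim1 nuclei, so only members could carry them over 50 UMIs. For them the outcome was fixed by the minimum, as it was for Isl1, with 23, on the forebrain list. Any gene under 50 UMIs in Sim1 nuclei was counted only through members, and the counts of higher genes on all lists include such genes.

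Meis2, a TALE homeobox factor of striatal and amygdalar lineages, stood at 179 CPM in members and 3.33 CPM in Sim1 nuclei, a ratio of 53.8 (41.1 to 71.2). Its 294 UMIs came from only 37 nuclei, with up to 32 in 1 nucleus. Meis2 levels in Ctrl, KD and Q153R members were 148, 304 and 26.9 CPM. The KD level came from 18 nuclei and the Q153R level from 2. Isl1, a LIM homeobox factor of striatal and several hypothalamic neurons, stood at 34.7 against 1.14 CPM, 30.4 times as high (18.4 to 51.6), from 39 members. Its levels in Ctrl, KD and Q153R members were 23.4, 59.5 and 32.2 CPM. KD was highest for both genes, and Q153R was lowest only for Meis2.

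St18, a zinc-finger factor of the ventral forebrain, stood at 68.9 against 5.77 CPM, a ratio of 11.9 (9.13 to 15.6). St18 is also an oligodendrocyte gene, and the summed level of the 8 oligodendrocyte markers was 149 CPM in members and 63.3 CPM in Sim1 nuclei. These sums include the 68.9 and 5.77 CPM of St18 itself, so they are no separate measure of oligodendrocyte transcripts. The part of such transcripts in the St18 level was not tested. Sox6 stood at 98.1 against 10.7 CPM, 9.18 times as high (7.43 to 11.3), from 23 members with up to 34 UMIs in 1 nucleus. The astrocyte-like cluster held Sox6 at 1504 CPM. Of the 8 astrocyte markers, Gpc5 stood at 737 CPM in members and 1414 CPM in Sim1 nuclei, and the other 7 summed to 138 and 83.7 CPM, against 12134 CPM in the astrocyte-like cluster. Their part in the Sox6 level was not tested. Six3, a homeobox factor of the rostral forebrain, stood at 45.7 against 5.77 CPM, a ratio of 7.92 (5.85 to 10.7), with 50.8, 38.3 and 37.6 CPM in Ctrl, KD and Q153R members and 68.6 CPM in the astrocyte-like cluster. Sp9 stood at 12.8 against 1.69 CPM, 7.57 times as high (4.17 to 13.4).

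On the PVH list, the lower factors included Otp. Otp stood at 8.53 CPM in members and 89.6 CPM in Sim1 nuclei, a ratio of 0.0952 (0.0519 to 0.160), and without the Crh subcluster the ratio was 0.00745 from a single UMI. Ebf3 stood at 12.8 against 101 CPM, a ratio of 0.127 (0.0781 to 0.194) that fell to 0.0528 without the Crh subcluster. Uncx, a paired-type homeobox factor, stood at 1.83 against 23.8 CPM, and Sim2, the paralog of Sim1, had no UMI in members against 7.11 CPM. Arnt2 stood at 188 against 271 CPM, a ratio of 0.692 (0.615 to 0.777) that fell to 0.480 without the Crh subcluster. Low ratios were also found on the forebrain GABAergic list. Foxp2 stood at 39.0 against 362 CPM, a ratio of 0.108 (0.0828 to 0.138). Lhx5 stood at 1.83 against 15.8 CPM, and Lhx2 and Neurod2 had no UMI in members, which allows up to 1.83 CPM. Of the PVH list, Mkx had the highest ratio, 53.0 against 26.8 CPM or 1.98 times (1.56 to 2.49), and 2.17 times without the Crh subcluster. Slc17a6 was at 20.1 against 144 CPM, a ratio of 0.139 (0.0957 to 0.196) that fell to 0.0925 without the Crh subcluster. The 20.1 CPM lay below the 34.3 CPM of the astrocyte-like cluster, and Slc17a7 and Slc17a8, the other vesicular glutamate transporters, were at 0 in members.

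**Figure D2:**
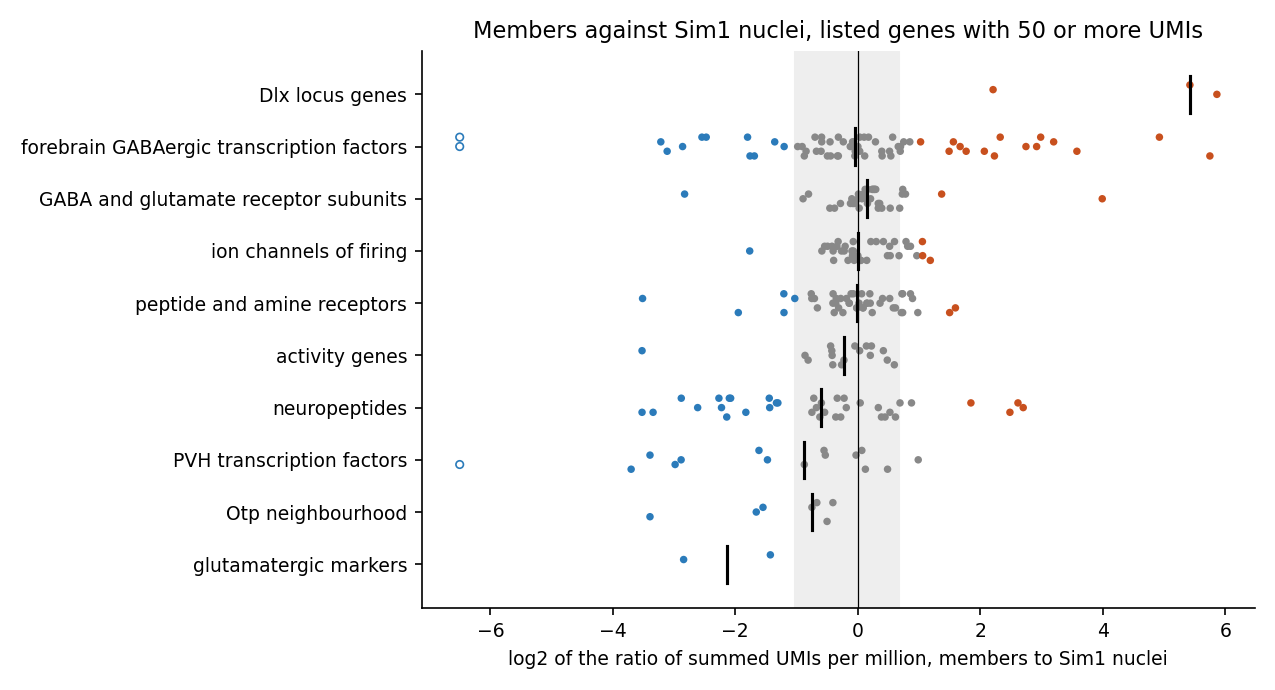
Each point is a gene with 50 or more UMIs, placed at the log2 ratio of its level in members to its level in Sim1 nuclei, by list. Orange points are at least 2-fold higher, blue points at least 2-fold lower, open points have no UMI in members and stand at the left edge, black bars are medians and the grey band spans the 5th to 95th percentile of all counted genes above 0. The 3 Dlx locus genes lie farthest to the right as a list, and the PVH transcription factors and glutamatergic markers lie to the left. Dlx6os1, Dlx1, Isl1, Crhbp and Prok2 are among the genes that met the 50-UMI minimum only through members.

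Neuropeptides marked small numbers of members rather than the set as a whole. Of 66 measured peptide genes 37 were counted, 4 of them at least 2-fold higher and 14 at least 2-fold lower than in Sim1 nuclei, with a median log2 ratio of -0.59. Gal, which encodes galanin, stood at 47.5 against 7.31 CPM, a ratio of 6.50 (4.88 to 8.61), and 66 of its 78 UMIs came from 9 nuclei with at least 3 each. Those 9 were 5 Ctrl, 4 KD and 0 Q153R nuclei, and 4 of 3248 Sim1 nuclei reached the same count. Crhbp, the binding protein for Crh, stood at 12.2 against 1.99 CPM, a ratio of 6.13 (3.39 to 10.7), from 7 nuclei. Prok2, a circadian output peptide, stood at 12.8 against 2.29 CPM, a ratio of 5.59 (3.17 to 9.57), from 9 nuclei. Pnoc, the nociceptin precursor, stood at 19.5 against 5.42 CPM, a ratio of 3.6 (2.35 to 5.38), from 18 nuclei.

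Some peptides under the 50-UMI minimum came from few nuclei. Npy had 29 UMIs in 10 members and 5 UMIs in all Sim1 nuclei, and 21 of the 29 came from 3 nuclei. Tac2, the neurokinin B precursor, had 26 UMIs in members, of which 24 were in 5 KD nuclei and 2 in 2 Ctrl nuclei. Vip had no UMI in members. Among abundant PVH peptides, Trh stood at 6.09 against 61.8 CPM and Bdnf, which encodes a neurotrophin, at 3.66 against 42.0 CPM, ratios of 0.0986 (0.0472 to 0.182) and 0.0870 (0.0318 to 0.190). The summed levels of Avp and Oxt in members, both 126 CPM, were below the 234 and 297 CPM of the astrocyte-like cluster, so no expression is read from these sums. In the Crh subcluster Avp stood at 315 CPM (230 to 422), 2.91 times (2.05 to 4.08) the other members, with 14 of its 45 UMIs in 1 nucleus. That level's interval overlapped the one of the astrocyte-like cluster (168 to 318). At least 3 Avp UMIs were held by 18 members (6.95%), 13.3% of Sim1 nuclei and 2 of 77 astrocyte-like nuclei, and no expression is read from these values either. Agrp, the peptide of arcuate hunger neurons, stood at 31.7 CPM in members and 30.8 CPM in Sim1 nuclei, with at most 3 UMIs in 1 member. Sst was present at 101 against 166 CPM, a ratio of 0.608 that fell to 0.473 without the Crh subcluster, with 13 members at 3 UMIs or more, spread as 5 Ctrl, 5 KD and 3 Q153R nuclei.

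Receptor and channel genes mostly differed by smaller steps between members and Sim1 nuclei, with 1 exception. Grik3, a kainate receptor subunit, stood at 170 CPM in members and 10.7 CPM in Sim1 nuclei, a ratio of 15.9 (13.3 to 19.1), and was found in 124 members. Grik3 levels in Ctrl, KD and Q153R members were 168, 191 and 129 CPM, with overlapping intervals between Ctrl and each of the others. Of 37 GABA and glutamate receptor subunits counted, 2 were at least 2-fold higher, Grik3 and Gabra5, beside 1.86% of all genes. Gabra5, the alpha-5 subunit of the GABA-A receptor, stood at 97.5 against 37.7 CPM, a ratio of 2.58 (2.16 to 3.07). Smaller excesses were seen for Gabrg1 at 1.72 times, Grik2 at 1.65 times and Gabra3 at 1.61 times the Sim1 level. Grm3 at 0.538 times, Grm8 at 0.573 times and Grik5 at 0.729 times were lower, and Grm2 had 1 UMI in members.

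Among 47 peptide and amine receptors counted, 2 were at least 2-fold higher and 5 at least 2-fold lower, beside 1.86% and 5.59% of all genes. The higher ones were Crhr1, a receptor for Crh, at 10.4 against 3.43 CPM, and Ntsr1, a neurotensin receptor, at 9.14 against 3.23 CPM. Without the Crh subcluster the Ntsr1 interval (0.946 to 4.04) spanned 1. Htr2c, a serotonin receptor, stood at 786 against 399 CPM, 1.97 times as high (1.86 to 2.09), and 2.06 times without the Crh subcluster. The calcitonin receptor gene Calcr stood at 29.2 against 113 CPM, a ratio of 0.259 (0.190 to 0.344) that fell to 0.159 (0.105 to 0.232) without the Crh subcluster. Also lower were Npr3 at 6.09 against 14.1 CPM and Cckar at 1 UMI. Of 37 ion channels, 3 were at least 2-fold higher, beside 1.86% of all genes. These were the calcium channel subunit Cacna2d3 at 2.27 times, Trpc4 at 2.08 times and Kcnmb2 at 2.08 times. Cacna2d1, another calcium channel subunit, was the only channel at least 2-fold lower, beside 5.59% of all genes, at 364 against 1236 CPM. Its ratio of 0.294 (0.271 to 0.319) fell to 0.151 without the Crh subcluster, which held 318 of the 597 Cacna2d1 UMIs of members.

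Smaller lists gave the following. Slc18a2, the vesicular monoamine transporter gene, stood at 22.5 against 10.1 CPM, a ratio of 2.22 (1.52 to 3.17), and Ddc at 1.79 times, while the dopamine transporter gene Slc6a3 was at 0 in members and Th had 8 UMIs. Necab1 stood at 0.383 times and Nos1 at 0.561 times the Sim1 level. Of 17 activity genes counted, 0 were at least 2-fold higher and 1, Bdnf, at least 2-fold lower, a share near the 5.59% of all genes. Without the Crh subcluster 6 of the 17, Nptx2, Fosl2, Fosb, Npas4, Jun and Bdnf, were at least 2-fold lower, beside 6.31% of all genes, and the list's median log2 ratio moved from -0.23 to -0.68. Outside the lists, the genes with at least 200 UMIs and the highest ratios were Gm38505 at 13.7 times, Gm29683 at 4.78 times (578 CPM in the astrocyte-like cluster), Megf11 at 4.52 times and Nrxn3, a presynaptic adhesion gene, at 4.47 times (4.38 to 4.55), with Nrxn3 in 258 of 259 members.

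The other 6 subclusters differed in their leading factors and only some of them in peptides, and the values that follow describe clusters made from the same nuclei. By fold after adding 5 CPM, the highest peptide was Agrp at 1.77 in subcluster 4 and Avp at 1.39 in subcluster 6. In subcluster 3 it was Stc1, from 5 UMIs in 3 nuclei. The 6 subclusters are called by their leading genes and given no cell type name. Subcluster 1, the largest, had 73 members and was led by Moxd1, Gldn and Tac2. Sox6 stood at 219 CPM in it, from 11 nuclei, and the oestrogen receptor gene Esr1 at 149 CPM from 19 nuclei, against 49.5 and 39.3 CPM in the other members. All 9 Lhx6 UMIs of members were in it, spread over 8 nuclei, and 21 of the 29 Npy UMIs were in 4 of its nuclei. mt-Cytb, a transcript of the mitochondrial genome, was also among its 10 leading genes, at 61.8 against 8.53 CPM.

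Subcluster 2 had 41 members and was led by Ebf1, 9330111N05Rik and Crhbp. Ebf1 stood at 247 CPM in it and 13.7 CPM in the other members, and at 260, 287 and 301 CPM in Ctrl, KD and Q153R Sim1 nuclei. The factor Nfib stood at 559 CPM (472 to 658) in it, against 144 CPM in the other members, and Zic2 at 50.1 against 4.34 CPM. Pnoc stood at 54.0 against 13 CPM, from 6 nuclei. Its extracellular matrix gene Reln stood at 575 against 106 CPM. Crhbp rested on 3 nuclei, 1 of them with 8 of the 15 UMIs.

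Subcluster 3 had 37 members. Pla2g6 led it by fold, but 62 of its 64 UMIs were in 1 nucleus. The mechanosensitive channel gene Piezo2 stood at 156 against 10.2 CPM from 13 nuclei and Hs3st4, a heparan sulfate enzyme gene, at 1482 against 377 CPM from 30. Satb1 stood at 104 against 34.2 CPM and Meis2 at 335 against 149 CPM. Subcluster 4 had 32 members with the LIM factor Lhx1 at 87.7 against 3.43 CPM, Six3 at 159 against 31.5 CPM and Pou3f2 at 87.7 against 10.3 CPM. Six3 was seen in 17 of its 32 nuclei and Lhx1 in 9.

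Subcluster 6, of 24 members, held most of the Meis2 signal. Meis2 stood at 1101 CPM in it (947 to 1274) against 76.5 CPM in the other members, from 17 nuclei that held 181 of the 294 UMIs. Zeb2 stood at 365 against 27.1 CPM, Pbx3 at 846 against 155 CPM and Isl1 at 122 against 25.1 CPM. Meis2 and Zeb2 were found together in 18 members and Meis2 and Isl1 in 15, out of 37 with Meis2.

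Subcluster 7, of 23 members, held the galanin nuclei. Gal stood at 408 CPM (314 to 522) in it against 10.1 CPM, from 11 nuclei, Prok2 at 110 against 2.69 CPM and the nuclear receptor gene Rorb at 1425 against 184 CPM from 20 nuclei. It also had the highest Gad1, at 499 CPM, and Dlx6os1, at 181 CPM, of the 7 subclusters. Gal and Rorb were found together in 13 of the 19 members with Gal. Prok2 and Rorb are markers of the suprachiasmatic nucleus, a neighbouring GABAergic nucleus, but Vip was at 0 and only 2 of the 8 suprachiasmatic markers had any UMI in the subcluster, so it was given no name. The astrocyte gene Slc4a4 was among its leading genes, at 168 against 14.1 CPM, from 3 nuclei with 13 of the 26 UMIs in 1.

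**Figure D3:**
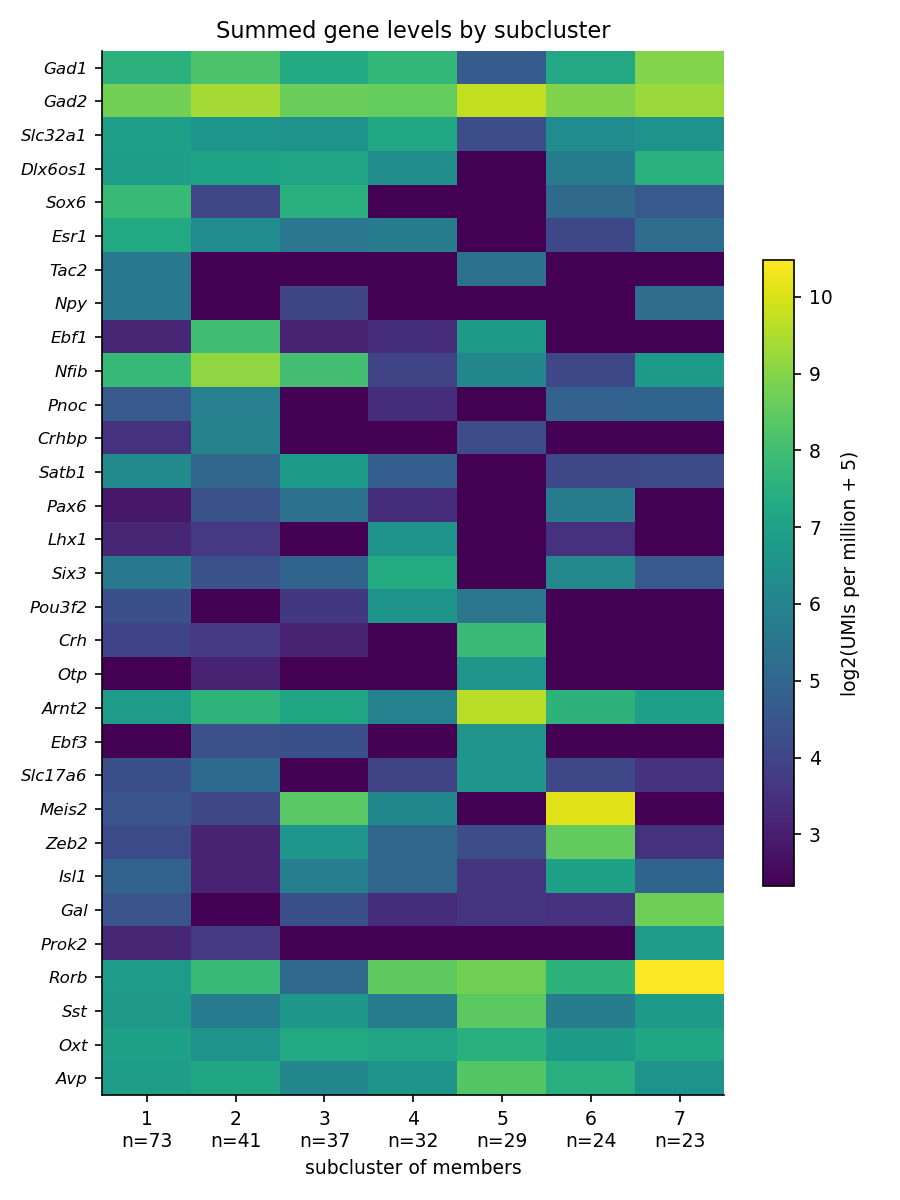
Summed level of selected genes in the 7 subclusters of members, as log2(CPM + 5), with the number of nuclei under each column. Column 5 combines the highest Gad2, Crh, Otp and Arnt2 with no Dlx6os1, column 6 has the highest Meis2 at 1101 CPM and column 7 the highest Gal at 408 CPM.

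The share of members differed between the hashtag pools. Members were 7.68% of Ctrl nuclei (151 of 1966, 6.54 to 8.95), 5.20% of KD nuclei (70 of 1347, 4.07 to 6.52) and 2.39% of Q153R nuclei (38 of 1591, 1.70 to 3.26). The odds ratio of membership was 0.659 (0.485 to 0.889) for KD to Ctrl and 0.294 (0.199 to 0.425) for Q153R to Ctrl. With 6 or more GABA gene UMIs required, the KD interval (0.389 to 1.2) spanned 1. Q153R to KD gave 0.447 (0.291 to 0.677). Thinned to 2000 UMIs per nucleus, leaving out 169, 87 and 128 shallower nuclei, the expected shares were 2.11% in Ctrl, 1.49% in KD and 0.856% in Q153R, in the same order. A share is of the sorted nuclei of a pool and does not tell fewer such cells from more of the others, and how much tissue around the PVH each dissection took was not measured.

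The sex mix differed between the pools, and within Ctrl between members and Sim1 nuclei. Nuclei with at least 3 Xist UMIs and no UMI of 4 Y-linked genes are called Xist nuclei, and those with at least 2 Y-linked UMIs Y-linked nuclei. Of Ctrl members 45.0% were Xist nuclei and 35.1% Y-linked nuclei, while of Ctrl Sim1 nuclei 70.8% and 12.8% were. Members were 18.3% of the 290 Ctrl Y-linked nuclei (14.0 to 23.2) and 5.32% of the 1277 Ctrl Xist nuclei (4.16 to 6.70), an odds ratio of 3.97 (2.65 to 5.94). In Q153R they were 1.83% of 438 Y-linked nuclei and 2.89% of 761 Xist nuclei, an odds ratio of 0.625 (0.239 to 1.47). In KD only 45 nuclei were Y-linked.

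Among Xist nuclei alone, members were 5.32% in Ctrl, 5.23% in KD (3.99 to 6.73) and 2.89% in Q153R (1.82 to 4.34). The odds ratio for KD to Ctrl was then 0.982 (0.671 to 1.43), so the difference over all nuclei was not seen among Xist nuclei. That for Q153R to Ctrl was 0.529 (0.309 to 0.876), nearer to 1 than over all nuclei. Sex, animal and dissection cannot be told apart within a pool.

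**Figure D4:**
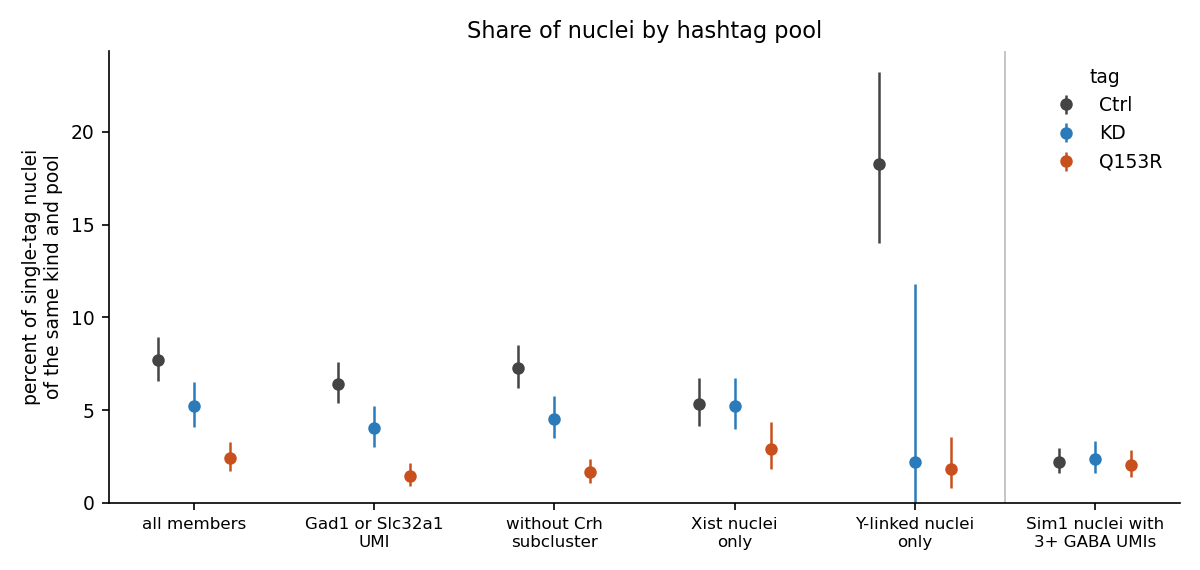
Points are the share of single-tag nuclei of each hashtag pool that were members, over all nuclei, under 2 narrower definitions of members, and among Xist or Y-linked nuclei alone. The last group shows Sim1 nuclei with 3 or more GABA gene UMIs for comparison. Bars are 95% Clopper-Pearson intervals. Ctrl Y-linked nuclei stand apart at 18.3%, and among Xist nuclei Ctrl and KD stand at 5.32% and 5.23%.

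The kinds of member did not follow the pools alike. Members with a Gad1 or Slc32a1 UMI made up 6.41%, 4.01% and 1.45% of the Ctrl, KD and Q153R pools, with an odds ratio of 0.214 (0.130 to 0.338) for Q153R to Ctrl. Members with Gad2 alone were 1.27%, 1.19% and 0.943%, with odds ratios of 0.933 (0.464 to 1.83) for KD and 0.739 (0.361 to 1.46) for Q153R. The Crh subcluster was 0.407%, 0.668% and 0.754%, with an odds ratio of 1.86 (0.697 to 5.26) for Q153R. It made up 12 of the 38 Q153R members and 8 of the 151 Ctrl members. Sim1 nuclei with at least 3 GABA gene UMIs were 2.19%, 2.38% and 2.01% of the pools, and their odds ratios of 1.09 (0.663 to 1.77) and 0.918 (0.559 to 1.49) both spanned 1. The cluster of all nuclei that held most members, which includes nuclei below the GABA limit, was 18.1%, 10.9% and 5.59% of the pools.

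By subcluster, the Moxd1 subcluster had 57 Ctrl, 11 KD and 5 Q153R nuclei, and its odds ratios were 0.276 (0.130 to 0.534) for KD and 0.106 (0.0330 to 0.262) for Q153R. The Ebf1 subcluster had 26, 8 and 7 nuclei, the Piezo2 subcluster 18, 15 and 4, and the Lhx1 subcluster 16, 9 and 7. The Meis2 subcluster had 12, 9 and 3. The Gal subcluster had 14 Ctrl, 9 KD and 0 Q153R nuclei, and 0 of 1591 allows a share of up to 0.232% in Q153R against 0.712% (0.390 to 1.19) in Ctrl. Clusters were defined by genes that also differ between the pools, so these counts describe the nuclei and not a change of cell types.

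**Figure D5:**
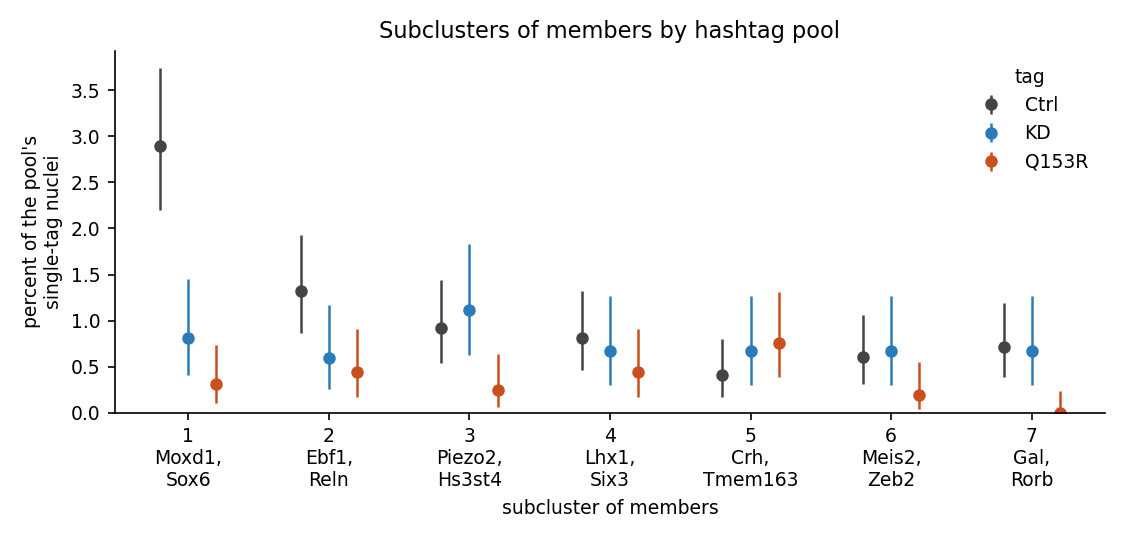
Share of each pool's single-tag nuclei in each of the 7 subclusters of members, with 95% Clopper-Pearson intervals. Ctrl stands above KD and Q153R in subcluster 1 (2.90% against 0.817% and 0.314%), and in subcluster 5, led by Crh and Tmem163, the 3 intervals overlap.

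Genes were also compared between pools within members. Of 4927 genes with at least 50 UMIs over KD and Ctrl members, 105 (2.13%) were at least 2-fold apart, and of 4248 over Q153R and Ctrl members 285 (6.71%). Ctrl, KD and Q153R members held 984735, 470266 and 186217 UMIs in all, so genes high in Ctrl reached the 50-UMI minimum more easily. Otp, the gene altered in the mice, had 5 UMIs in Ctrl, 1 in KD and 8 in Q153R members, and all but 1 lay in the Crh subcluster, too few to compare. Wdr41, a neighbour of Otp on chromosome 13 (chr13:94976344-95023314, plus strand), stood at 43.7, 55.3 and 37.6 CPM in Ctrl, KD and Q153R members. The KD to Ctrl ratio of Wdr41 was 1.27 (0.747 to 2.11) in members and 5.87 (5.25 to 6.57) in Sim1 nuclei, where the levels were 297 and 50.6 CPM. The intervals of the 2 ratios do not overlap, and the difference itself was not tested.

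In KD members, Zeb2 stood at 123 CPM against 28.4 CPM in Ctrl members, a ratio of 4.34 (2.72 to 7.07), Isl1 at 2.55 times (1.42 to 4.63), Onecut2 at 2.26 times, Meis2 at 2.05 times (1.62 to 2.60) and Kcnd3 at 1.95 times. Hcrtr2, an orexin receptor gene, stood at 12.8 against 53.8 CPM, a ratio of 0.237 (0.0833 to 0.551), Tacr1 at 0.326 times, Prox1 at 0.341 times, Btg2 at 0.493 times and Foxp2 at 0.513 times. Among Xist nuclei alone Zeb2 was at 6.26 times and Meis2 at 1.62 times, while the Onecut2 interval spanned 1 (0.735 to 4.02), as did that of Tacr1 (0.106 to 1.61). Without the Crh subcluster the Btg2 interval (0.297 to 1.55) and the Foxp2 interval (0.278 to 1.10) spanned 1. The Meis2 subcluster, where Zeb2 and Isl1 were also high, held 9 of 70 KD members and 12 of 151 Ctrl members. Among astrocyte markers, Gpc5 alone stood at 551, 814 and 1520 CPM in Ctrl, KD and Q153R members. The other 7 summed to 99.5, 221 and 134 CPM, highest in KD, with Aqp4, Slc1a3 and Ntsr2 at 0 in Q153R, and their part in the differences between pools was not tested. All 8 astrocyte markers, Gpc5 included, summed to 4760 CPM in the Crh subcluster and to between 373 and 1257 CPM in the other subclusters. The 7 markers other than Gpc5 held only 227 UMIs in all members together, so most of the sum in the Crh subcluster was Gpc5. Sim1 nuclei held Gpc5 at 1414 CPM. The Crh subcluster held 8 of 151 Ctrl, 9 of 70 KD and 12 of 38 Q153R members, and its part in the Gpc5 levels was not tested.

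In Q153R members, Ebf1 stood at 183 against 36.6 CPM in Ctrl members, a ratio of 4.99 (3.03 to 8.21). The Q153R level came from 7 nuclei, with 15 of its 34 UMIs in 1 nucleus. Chrm2, a muscarinic receptor gene, stood at 2.48 times (1.83 to 3.33) with 29 of its 67 UMIs in 1 nucleus, Sst at 2.12 times, Arnt2 at 1.99 times and Homer1 at 1.76 times. Without the Crh subcluster Chrm2 was at 2.78 times and Ebf1 at 3.79 times, while Sst was at 0.576 times (0.204 to 1.32) and Arnt2 at 0.737 times (0.370 to 1.34), so the excess of the last 2 was not present outside it. Among Xist nuclei alone Ebf1 was at 2.63 times (1.24 to 5.37), while the Sst interval (0.867 to 3.37) and the Homer1 interval (0.843 to 1.94) spanned 1. Sim1 nuclei held Ebf1 at 260 CPM in Ctrl and 301 CPM in Q153R, above the level in Q153R members. Ebf1 is also 1 of 8 endothelial and mural markers. Of the others, Pecam1, Pdgfrb and Rgs5 had 9, 1 and 1 UMIs in members, Flt1, Cldn5, Abcb1a and Vtn were at 0, and their part in the Ebf1 level was not tested. Sox6 stood at 10.7 against 121 CPM (2 and 119 UMIs), a ratio of 0.0889 (0.0106 to 0.328), Esr1 at 0.18 times, Meis2 at 0.181 times and Mkx at 0.305 times. Without the Crh subcluster the Mkx interval (0.0785 to 1.21) spanned 1. Sox6 and Esr1 were highest in the Moxd1 subcluster, with 5 Q153R nuclei, and Meis2 and Mkx in the Meis2 subcluster, with 3. Of 30 forebrain GABAergic factors counted in Q153R to Ctrl members, 1 was at least 2-fold higher and 9 at least 2-fold lower, beside 2.33% and 4.38% of all counted genes, with a median log2 ratio of -0.36 against -0.01. In KD to Ctrl members 4 of 37 were at least 2-fold higher and 1 at least 2-fold lower, beside 0.629% and 1.5% of all counted genes.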

How the data were processed

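The library was counted as UMIs per gene and barcode. The authors deposited raw counts for 31053 genes and 3 hashtag rows, per the file headers. Cell Ranger 6.0.0 and the mm10 build are named in the submitters' processing notes, and the matrix header names version 7.0.0. For annotation, introns, strand and cell calling, the settings were not given in the sources used here. The members, gene lists and marker sets were chosen with earlier results of these data known.

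Hashtags counted as positive at 105 UMIs for Ctrl, 61 for KD and 37 for Q153R. Of 6157 barcodes with 500 genes, 1124 had more than 1 tag and were left out, as were 129 with none. No doublet caller was run, and doublets within a pool remain. Single-tag nuclei held 565 to 29974 UMIs (median 5252).

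Levels (CPM) are summed UMIs scaled to a library of 1000000. Intervals, from SciPy 1.17.1, are exact Poisson for levels, Clopper-Pearson for shares and exact conditional for ratios and odds ratios. Genes needed 50 UMIs over both sets and a 2-fold difference to be counted. A count of 0 was read as at most 3. Counts scaled to 10000 per nucleus, 2000 variable genes without listed and sex-linked genes, 15 components (30 for all barcodes) and 15 neighbours were clustered with leidenalg 0.10.2 at resolution 1. Leading genes had the highest fold after adding 5 CPM, among genes with 20 UMIs. Named genes were, for each list, up to 6 highest and 4 lowest ratios with an interval excluding 1, and for pools up to 5 each way over all lists. Further genes, such as Dlx2, Npy and Vip, were named after their values were seen, and some that the rule names are not reported here. The ratio intervals were checked only on simulated independent Poisson counts, the model that they assume. UMIs gathered in few nuclei were not simulated, so the check cannot tell how the intervals hold for such genes. Coordinates are from GENCODE vM21 and promoters from RefSeq, both GRCm38.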

Additional observations from a re-analysis of the deposited data

Results flagged for a closer look

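Barcodes outside the comparisons also met the gene rule. Of 1124 barcodes with more than 1 positive hashtag, 32 (2.85%, 1.96 to 4.00) had at least 3 GABA gene UMIs and no Sim1 UMI. They held Dlx6os1 at 109 CPM and Otp at 20.4 CPM, with a median of 8677.5 UMIs. Of 129 barcodes with no positive hashtag, 4 (3.10%, 0.851 to 7.75) met it, with a median of 2819.5 UMIs. Among single-tag nuclei the share was 5.28%, above the interval of the first group and within that of the second. These barcodes cannot be placed in a pool.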

How the results depend on the processing

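No paired analysis was possible because each pool was sampled once. The share of members was 7.24% at 2 GABA gene UMIs, 1.53% at 6, 1.53% after thinning and 4.14% where a Gad1 or Slc32a1 UMI was required. Both odds ratios were below 1 under all 12 alternatives run, but the KD interval spanned 1 at 6 GABA gene UMIs (0.692, 0.389 to 1.2) and among Xist nuclei, and thinned values have no interval. Among Xist nuclei they were 0.982 for KD and 0.529 for Q153R, and under the others 0.605 to 0.700 and 0.212 to 0.401. Requiring a Gad1 or Slc32a1 UMI, leaving out the Crh subcluster and using members and Sim1 nuclei as denominator were chosen after seeing the data.

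Counts of genes 2-fold apart moved with the number of nuclei and UMIs behind them. At 6 GABA gene UMIs, 540 genes were higher and 1806 lower than in Sim1 nuclei and 178 were apart between Q153R and Ctrl. With a minimum of 20 UMIs the counts were 535, 1330, 562 for KD and 1146 for Q153R, and with 200 UMIs they were 87, 223, 4 and 23. Against the Sim1 nuclei with 3 GABA gene UMIs, 138 of 6663 genes were lower. The number of subclusters was 6 to 10 over 5 settings. The Crh subcluster kept 27 to 29 of its 29 nuclei together in 4 of them and 21 at resolution 1.5. Genes under about 20 UMIs in a pool, and any Q153R level from 38 nuclei, are limited by depth.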
